A study of Mus musculus with 3 samples.

Results

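Promoter sites of TRα1, the main thyroid hormone receptor of the brain, were defined as the ChIP-seq sites whose summit lay at most 1 kb from the nearest transcription start site (TSS) of a protein-coding gene, on either side. The TSS was the 5′ end of the gene in GENCODE vM21 on GRCm38, 1 per gene, for 21938 genes. Of the 23988 sites of the list, 4894 met this rule (20.4%, 95% Wilson interval 19.9 to 20.9), 3707 lay 1 to 10 kb from a TSS and 15387 lay farther away. The ChIP had been performed on striatum of euthyroid, untreated adult male C57BL/6J mice, aged 8 weeks, with the unit taken from the study since the labels give none, in which a TRα1 carrying the GS affinity tag was expressed in GABAergic neurons. All 3 libraries came from mice of this genotype: 2 TRα1 ChIP libraries and 1 input library. The promoter that drove the tagged receptor, and its place of insertion in the genome, were not given in the sources used here. The data consisted of 1 peak list for the whole series, with no values for single libraries. The intervals and p-values therefore cover counting over the sites or genes of this list and not the variation between animals, and sequencing depth was not analysed here.

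Thyroid hormone receptors are nuclear receptors that stay on chromatin with or without their ligand T3 and recruit corepressors or coactivators. They bind mostly as heterodimers with RXR, and their best known element, DR4, is a direct repeat of the hexamer AGGTCA with a spacer of 4 bases. Many promoters, above all those of broadly expressed genes, lie in CpG islands, stretches of GC-rich DNA whose CpG dinucleotides have been retained. In these neurons, most of them projection neurons of the striatum, T3 is known for its role in maturation and motor function.

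The DR4 elements that came closest to the consensus at promoter summits are shown first. They are sequence matches, and binding of the receptor to these bases themselves was not tested. The first 10 had no mismatch or 1 mismatch among the 12 hexamer bases and the highest fold enrichment among such sites, and the last one, with 2 mismatches, lay at the promoter of Hr, a corepressor gene named in the study. Each is given 5′ to 3′ on the strand of the element with 7 bases on either side, and capitals mark the hexamers of the DR4. At Cabcoco1 a further AGGTCA, in lower case, follows the DR4 directly.
2310061I04Rik (chr17:35896733-35896762, plus strand): ggatggcAGGTCAcccgAGGTCAagcctga
Cabcoco1 (chr10:68541674-68541703, minus strand): aacaccaAGGTCActcaAGGTCAaggtcag
Rcc2 (chr4:140701189-140701218, minus strand): tctagacAGGTCAcctgAGGACActcgctg
Abcd2 (chr15:91191969-91191998, plus strand): tctggagAGGTCGaatgAGGTCAgctgctg
Yif1b (chr7:29238504-29238533, plus strand): gttggcgAGGTCActccAGGTCGgacggag
Faap100 (chr11:120378458-120378487, plus strand): gagagcgAGGTCAggcgAGGGCAcacgcgg
Babam2 (chr5:31698632-31698661, minus strand): caagataAGGTCAcatgAGGTCTtttagtg
Phc3 (chr3:30969481-30969510, plus strand): ggcgcagAGGTCAcgtgAGGCCAgcgactg
Lin7b (chr7:45370285-45370314, plus strand): agcaagaAGGGCAatcgAGGTCAgactgga
Sdf2 (chr11:78245303-78245332, plus strand): attcaagAGGTAAccccAGGTCAcaggttc
Hr (chr14:70552144-70552173, minus strand): cgggtggAGGGCAtctgAGGACAtcccctc

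The strongest promoter sites are shown next. Below are the 150 bases around the 5 summits that ranked first by fold enrichment, all of which lay outside exons, on the strand of the gene, with capitals for any match to 1 of the 16 short motifs listed further on or to DR4 with at most 2 mismatches. None of these few sites held such a DR4, and their GC content ranged from 54.7 to 70.7%. The capitals mark an RFX motif at Kmt5c, an ETS motif at Dot1l and an E-box at Lingo3, and there are none in the bases printed for Nr1d2 and Chn1. Within the wider 100 bp searched on either side of the summit, the Nr1d2 site held an ETS and an NRF1 motif.
Kmt5c (chr7:4739897-4740046, plus strand): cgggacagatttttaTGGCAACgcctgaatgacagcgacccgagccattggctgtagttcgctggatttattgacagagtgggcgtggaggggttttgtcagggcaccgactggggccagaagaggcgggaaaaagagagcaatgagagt
Nr1d2 (chr14:18238257-18238406, minus strand): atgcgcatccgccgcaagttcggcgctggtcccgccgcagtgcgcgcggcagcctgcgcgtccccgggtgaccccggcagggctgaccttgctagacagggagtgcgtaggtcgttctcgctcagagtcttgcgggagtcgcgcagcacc
Chn1 (chr2:73775553-73775702, minus strand): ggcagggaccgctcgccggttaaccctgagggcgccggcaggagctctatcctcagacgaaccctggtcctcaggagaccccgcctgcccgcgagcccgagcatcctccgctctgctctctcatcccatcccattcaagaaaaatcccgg
Dot1l (chr10:80754904-80755053, plus strand): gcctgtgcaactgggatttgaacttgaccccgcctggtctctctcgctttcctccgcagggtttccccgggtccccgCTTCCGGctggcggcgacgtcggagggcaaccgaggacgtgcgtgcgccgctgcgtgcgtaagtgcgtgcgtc
Lingo3 (chr10:80844080-80844229, minus strand): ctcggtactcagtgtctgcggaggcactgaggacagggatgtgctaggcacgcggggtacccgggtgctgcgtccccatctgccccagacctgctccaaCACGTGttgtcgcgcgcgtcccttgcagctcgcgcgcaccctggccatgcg

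Promoter sites gathered close to the TSS. The median distance was 218 bp, 1311 sites (26.8%) lay within 100 bp, 2681 (54.8%) within 250 bp and 3877 (79.2%) within 500 bp. The fullest bin of 50 bp was the one just downstream of the TSS, with 362 sites, against 299 sites in the bin just upstream. The counts fell to 67 sites in the last downstream bin and to 16 in the last upstream bin. Downstream summits were more frequent than upstream ones, 2925 against 1966, with 3 at the TSS itself (59.8% downstream, interval 58.4 to 61.2, two-sided exact binomial test, p = 5.65e-43). This asymmetry rested on the use of 1 TSS per gene: when all annotated transcript starts of protein-coding genes were taken, 50.9% of the sites within 1 kb were downstream (exact binomial test, p = 0.165). The 4894 sites themselves lay at a median of 139 bp from the nearest transcript start. By annotation, 401 summits (8.19%) fell in a coding exon, 1799 (36.8%) in another exon (untranslated or noncoding), 1256 (25.7%) in an intron and 1438 (29.4%) outside genes. At the edge of the definition, the last sites inside were those of Fam53c and Samsn1 at 1000 bp downstream and Myh9 at 999 bp upstream, with fold enrichments of 6.26, 5.58 and 5.70. Just outside lay those of Podxl2 at 1001 bp and Ppp1cc at 1002 bp downstream and Bmp2 at 1005 bp upstream, with 24.4, 5.33 and 9.62.

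**Figure D1:**
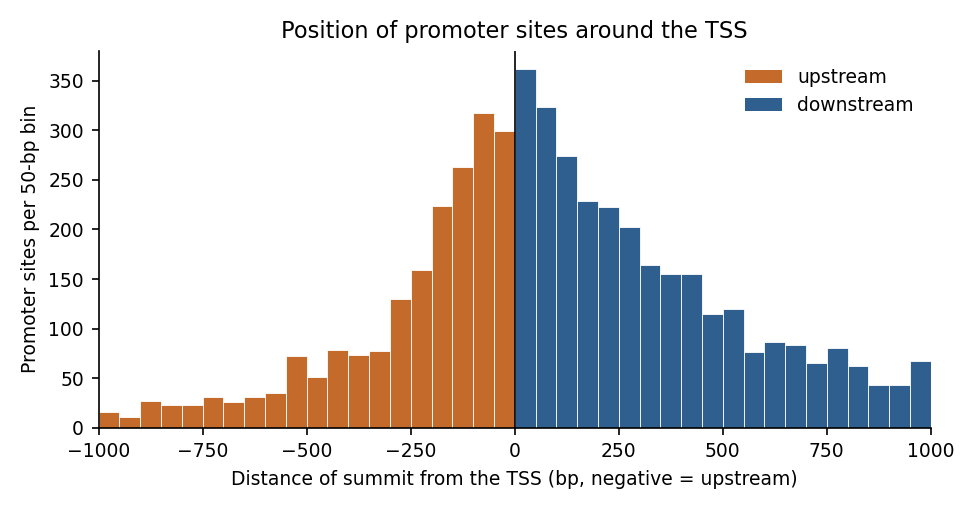
Number of promoter sites per 50-bp bin (y axis) against the distance of the summit from the TSS in bp (x axis, negative values upstream, orange; downstream, blue). The bins on either side of the TSS held 299 and 362 sites, and the downstream flank lay above the upstream one.

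The 4894 sites served 5092 genes, 23.2% of all protein-coding genes, because 562 sites (11.5%) lay within 1 kb of more than 1 TSS. Of these genes, 4721 had 1 site, 360 had 2 sites and 11 had 3 sites. Genes with 3 sites included Cltc, the clathrin heavy chain, with fold enrichments of 5.89, 6.45 and 10.4, and Kat2b, a histone acetyltransferase, with 4.48, 7.44 and 8.18. Minos1, of the mitochondrial inner membrane, had 4.95, 5.25 and 8.93, Mypop, a Myb-related factor, had 5.58, 6.27 and 6.69, and Pcbp2, an RNA-binding protein, had 6.16, 8.14 and 13.03. The sites of these 5 genes, taken in alphabetical order from the 11, thus had fold enrichments of 4.48 to 13.03.

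Promoter sites were somewhat stronger and clearly wider than the others. The fold enrichment given by MACS, the fragment coverage at the summit over the local background with 1 added to each, had a median of 7.81 (quartiles 6.01 and 12.02) at promoters and of 7.21 (5.95 and 10.8) at the other 19094 sites. The median pileup, the ChIP coverage at the summit, was 25 against 20 fragments and the median length 524 against 403 bp. A fold enrichment of at least 10 was reached by 1636 promoter sites (33.4%), against 28.9% of the other sites and 29.8% of all sites (odds ratio 1.24, interval 1.16 to 1.32, two-sided Fisher's exact test, p = 8.64e-10). The excess was clear against the sites beyond 10 kb, of which 28.2% reached it (odds ratio 1.28, p = 5.29e-12), and was not resolved against those at 1 to 10 kb, of which 31.7% did (odds ratio 1.08, interval 0.989 to 1.19, Fisher's exact test, p = 0.0859). It turned round when only sites with a MACS score of at least 200 were kept (odds ratio 0.492, Fisher's exact test, p = 3.10e-14). A length of at least 1 kb was found in 9.64% of promoter sites and 2.81% of the others (odds ratio 3.70, Fisher's exact test, p = 1.01e-82).

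The local background moved with these values. It had a median of 2.19 fragments at promoter sites and of 1.70 at the others, and it lay within 0.01 of its lowest value, 1.69, in 20.7% of promoter sites against 48.2% of the others. In the lowest decile of all sites by fold enrichment, up to 5.54, 26.2% of the sites were promoter sites. The share was 9.88% in the next decile and went from 17.6% in the third to 24.3% in the highest. The part of the background in the difference of fold enrichment was not tested.

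The 12 strongest promoter sites were all at CpG-rich promoters, as were 83.3% of all promoter sites. The highest fold enrichment, 121, was found 143 bp upstream of Kmt5c, a histone methyltransferase, with a pileup of 364 fragments. Nr1d2, the REV-ERBβ repressor of the circadian clock, followed with 112, in an intron 795 bp downstream of its TSS. Chn1, a Rac GTPase-activating protein of neurons, had 107 at 282 bp upstream, and Dot1l, another histone methyltransferase, had 107 at 227 bp upstream with the highest pileup of these sites, 445. Lingo3, a leucine-rich repeat membrane protein, had 103 at 116 bp upstream. The others were Setd5 (93.3), Flywch2 (92.3), Rev1 (89.3), a translesion DNA polymerase, Smc5 (88.5), of a chromosome maintenance complex, Arl6ip6 (85.6), Parp6 (79.5), an ADP-ribosyltransferase, and Epb41l2 (77.3), of the membrane skeleton. Smc5 and Epb41l2 had a DR4 within 100 bp of the summit, each with 2 mismatches, which makes 2 of 12 sites.

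The Setd5 site has a second annotation. Its summit, 895 bp upstream of the Setd5 TSS, lay 863 bp inside Gt(ROSA)26Sor (chr6:113067428-113077333, minus strand), the noncoding gene of the locus widely used for inserting transgenes, and at 2903 bp it was the third widest promoter site. The role of an inserted construct in this value was not tested. The widest sites, at the predicted genes Gm10722 (5553 bp) and Gm21738 (4226 bp), had pileups of 882 and 801 fragments but backgrounds of 223 and 216, so that their fold enrichments, 3.95 and 3.70, were among the 3 lowest of all promoter sites. The third low value was 3.93 at Senp5, a SUMO protease, with a pileup of 23. D5Ertd579e (2146 bp, fold enrichment 44.9) and Ephb1 (2135 bp, 15.5), an ephrin receptor, completed the 5 widest.

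DR4 was present at few promoter sites, and along the promoters its frequency peaked at the summit. Within 100 bp of the summit, 311 of the 4894 promoter sites (6.35%, interval 5.70 to 7.07) held a DR4 with at most 2 mismatches, against 13.1% of all sites of the list. Of these, 2 had no mismatch, 43 had 1 and 266 had 2. A window of equal width 500 bp to the right of each summit held it in 77 cases (1.57%), and 309 pairs had DR4 at the summit alone and 75 in the window alone (exact McNemar test, p = 7.79e-35). The same width around the TSS of all 21938 genes held it in 1.84%. Within the 100 bp searched on either side, the centre of the best element was at a median of 29.5 bp from the summit, and in 75.2% of the 311 sites it was within 50 bp. In the profile along the promoters, the share per 50-bp bin was 2.31% just left and 2.49% just right of the summit, and 0.409% 100 to 150 bp to the left. The element was on the strand of the gene in 45.98% of sites (interval 40.5 to 51.5), so that neither orientation was preferred beyond counting error.

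The share of promoter sites with DR4 followed the strength of the site. It was 4.09, 4.19 and 4.29% in the lower 3 quintiles of fold enrichment, 6.54% in the fourth and 12.7% in the highest, while the median GC around the summit differed little between the quintiles, from 65.7 to 66.7%. A fold enrichment of at least 10 was reached by 53.4% of promoter sites with DR4 and 32.1% of those without (odds ratio 2.42, interval 1.92 to 3.06, Fisher's exact test, p = 1.02e-13). Distance from the TSS showed a gradient as well. DR4 was found in 3.43% of the sites within 100 bp, 5.69% at 100 to 250 bp, 7.11% at 250 to 500 bp and 10.1% at 500 to 1000 bp, and the median GC went down from 68.2% in the first class to 60.7% in the last.

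Against the rest of the list, promoter sites held DR4 less often. The share was 14.4% at the sites 1 to 10 kb from a TSS and 14.99% beyond 10 kb (odds ratios 0.402 and 0.385, Fisher's exact tests, adjusted p = 4.48e-35 and 1.77e-62). Base composition moved with this difference, since the median GC around the summit was 66.2% at promoter sites and 48.3% at the other sites. Within bins of GC, the shares were 18.4% at promoter sites and 15.1% at other sites below 45% GC, 13.3 and 16.4% at 45 to 55%, 7.98 and 12.8% at 55 to 65%, 3.66 and 4.93% at 65 to 75%, and 2.18 and 1.65% above. Only the bin of 55 to 65% differed after adjustment over the 5 bins (odds ratio 0.592, interval 0.475 to 0.737, Fisher's exact test, adjusted p = 6.77e-06). At 65 to 75% the odds ratio was 0.732 (interval 0.469 to 1.14).

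**Figure D2:**
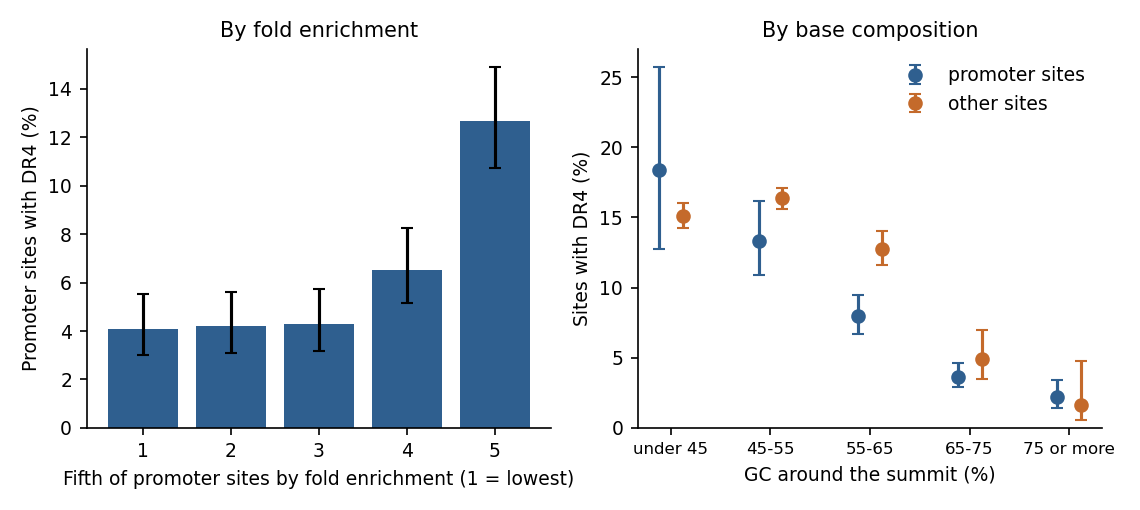
Left, share of promoter sites with DR4 (%, y axis) in quintiles of fold enrichment from lowest to highest (x axis), which was 4.09% in the first and 12.7% in the last. Right, share of sites with DR4 (%) in bins of GC content around the summit (%) for promoter sites (blue) and other sites (orange), where the shares of both went down from 45 to 55% GC onwards; bars are 95% Wilson intervals.

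The promoter sites of the elements shown above had the following values. Those with 1 mismatch were chosen for the highest fold enrichment among such sites, so their strength does not describe all sites with 1 mismatch. 2310061I04Rik, at 606 bp downstream in an exon, had a fold enrichment of 48.7 and Cabcoco1, at 215 bp downstream in an intron, had 31.1, both without mismatch. Among the sites with 1 mismatch, Rcc2, a regulator of chromosome condensation, had 62.2 at 679 bp downstream in an intron, and Abcd2, a peroxisomal fatty acid transporter, had 55.04 at 172 bp upstream. Yif1b, of Golgi traffic, had 44.9 and Faap100, of the Fanconi anaemia complex, had 43.7, both in exons. Babam2, of a DNA repair complex, had 32.8 at 950 bp, and Phc3, a Polycomb protein, had 29.6. Lin7b, a synaptic scaffold protein, had 28.3 and Sdf2 had 23.3. Hr, the hairless corepressor, had 21.6 at 98 bp upstream, with a pileup of 57, and the element shown above lay 44.5 bp from the summit. The elements of 2310061I04Rik and Sdf2 lay 77.5 and 82.5 bp from their summits, and those of the others 7.5 to 55.5 bp.

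Several other sequence motifs were also more frequent at promoter summits than beside them, and base composition moved with these differences. In all, 27 patterns were searched on both strands: the hexamer in 11 arrangements (DR0 to DR8, ER6 and IR0, with at most 2 mismatches) and 16 short motifs without mismatch. The short motifs were ETS (CCGGAAG), NRF1 (CGCATGCG), GC-box (GGGGCGG), NFY (CCAATCA), YY1 (AANATGGC), CRE (TGACGTCA), AP-1 (TGANTCA), E-box (CACGTG), EGR (GCGTGGGCG), ZNF143 (CCCAGNATG), KLF (GGGTGTGG), TATA (read as TATAAA), MEF2 (TAAAAATA), TR octamer (TNAGGTCA), NR4A (AAAGGTCA) and RFX (GTTGCCA). The TR octamer and NR4A motifs contain the hexamer. Against the window 500 bp to the right, 10 patterns were more frequent at the summit, 3 were less frequent and 14 did not pass an adjusted p of 0.05 (exact McNemar tests, Benjamini-Hochberg adjustment over the 27). The windows had a median GC of 53.7% against 66.2% at the summits, and 27.5% of them overlapped a site.

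The GC-box, the element of Sp and KLF factors, was the most frequent. It was found at 31.5% of promoter summits, 14.3% of the windows and 4.49% of the other sites of the list (adjusted p = 5.01e-90, exact McNemar test), at 25.1% of all TSSs and at 41.4% of the TSSs of the genes with a site. ETS was present at 9.17% of summits against 3.56% of windows, E-box at 6.56 against 3.33%, NFY at 3.70 against 2.08%, NRF1 at 1.45 against 0.511%, CRE at 1.49 against 0.572% and EGR at 1.21 against 0.204%. The shares around all TSSs were 9.60% for ETS, 5.68% for E-box, 6.40% for NFY, 1.88% for NRF1, 2.01% for CRE and 0.606% for EGR. Around the TSSs of the genes with a site they were 14.8% for ETS, 7.88% for E-box, 7.15% for NFY, 2.99% for NRF1, 3.18% for CRE and 1.10% for EGR, all but the last above the share at the summits. TATA (1.88 against 7.09%) and MEF2 (0.552 against 1.90%) were less frequent at the summit, and they were at 8.08 and 0.866% of all TSSs. AP-1, a motif of activity-dependent enhancers, was at 3.06% of promoter summits, 3.35% of the windows and 13.6% of the other sites, and it was at 4.11% of all TSSs.

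These contrasts were repeated in the 1002 pairs whose summit and window differed by at most 5 percentage points of GC, a choice made after seeing the data. Only 3 of the 27 patterns passed there. DR4 was at 8.28% of the summits against 1.10% of the windows (adjusted p = 2.16e-13), NFY at 4.59 against 1.90% (adjusted p = 0.0147) and the TR octamer at 3.49 against 1.30% (adjusted p = 0.0188, exact McNemar tests). The GC-box was at 25.6 against 21.0% (adjusted p = 0.0733) and ETS at 7.09 against 5.69% (adjusted p = 0.815, exact McNemar tests). DR4 was thus the pattern whose excess at the summit was largest in the pairs of like composition, among the 27 searched. Of the hexamer arrangements, none but DR4 passed in these pairs. In all 4894 pairs, DR8 was also more frequent at the summit, at 1.96 against 1.33%, and DR0 less frequent, at 2.29 against 3.09% (adjusted p = 0.0356 for each, exact McNemar tests). The TR octamer was at 3.15 against 2.21% there (adjusted p = 0.0127, exact McNemar test).

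**Figure D3:**
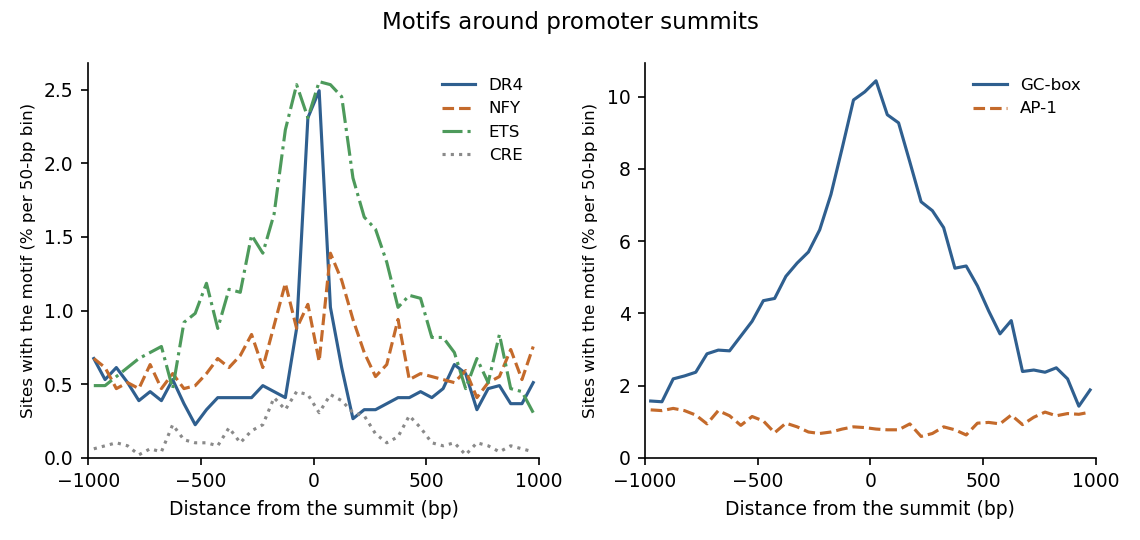
Share of promoter sites with a motif (% of the 4894 sites per 50-bp bin, y axis) against the distance from the summit (bp, x axis), for DR4, NFY, ETS and CRE (left) and for the GC-box and AP-1 (right, another scale). DR4 was concentrated in the bins next to the summit, at 2.31 and 2.49%, while the GC-box formed a broad hump of up to 10.4%.

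The promoters with a site were mostly CpG-rich. A promoter was counted as CpG-rich when the 250 bp on either side of the TSS had a GC content of at least 50% and an observed/expected CpG ratio of at least 0.6. This held for 83.2% of the 5092 genes with a site and 36.8% of the genes without (odds ratio 8.53, interval 7.88 to 9.24, Fisher's exact test, −log10 p = 782). Seen the other way, a site was found at 40.6% of the 10433 CpG-rich promoters and 7.42% of the 11505 others. The share climbed with the CpG ratio from 0.746% of genes below 0.1 to 51.8% at 1.0 to 1.1. The median fold enrichment of the occupied genes changed far less across these bins, from 6.69 in the lowest to at most 8.51. Promoter sites at CpG-rich promoters reached a fold enrichment of 10 in 34.1% of cases and those at other promoters in 30.1% (odds ratio 1.201, interval 1.02 to 1.41, Fisher's exact test, p = 0.0282). DR4 was more frequent at the sites of the other promoters, 8.69 against 5.89% (odds ratio 1.52, Fisher's exact test, adjusted p = 0.00361), and GC content was lower there, with medians of 59.7 and 67.2%.

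**Figure D4:**
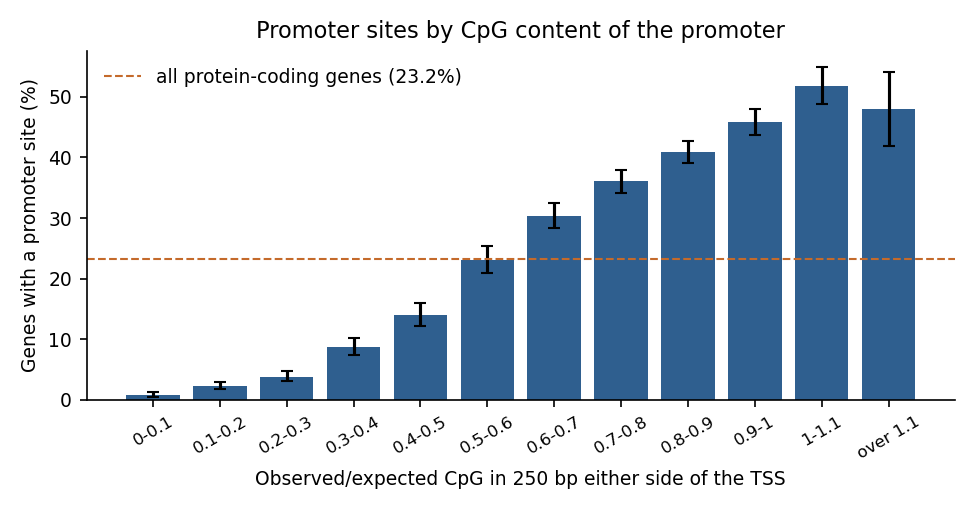
Share of protein-coding genes with a promoter site (%, y axis; bars are 95% Wilson intervals) by the observed/expected CpG ratio around the TSS (x axis). The share increased from 0.746% in the lowest bin to 51.8% at 1.0 to 1.1, against 23.2% of all genes (dashed line).

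The patterns around the TSS were compared within the 10433 CpG-rich promoters, where 5 of the 27 patterns besides DR4, searched 100 bp to either side of the TSS, differed between genes with and without a site. DR4 was at 1.44% of the promoters with a site and 0.565% of those without (odds ratio 2.57, interval 1.69 to 3.90, Fisher's exact test, adjusted p = 0.000221), and the TR octamer at 1.56 and 0.969% (adjusted p = 0.0431). The GC-box (46.4 and 43.0%) and YY1 (9.18 and 7.76%) were more frequent with a site, and NFY (6.82 and 8.75%) and TATA (2.17 and 3.24%) less frequent (adjusted p = 0.00584, 0.0472, 0.00474 and 0.00738, Fisher's exact tests). Over all promoters, with no test, 3 of these shares had the opposite order: DR4 was at 1.67% of promoters with a site and 1.89% of those without, the TR octamer at 1.92 and 2.61%, and NFY at 7.15 and 6.17%. By chromosome, genes with a site made up 19.3 to 32.7% of the genes on the autosomes, the highest share being on chromosome 12. On chromosome X it was 9.28% of 948 genes and on chromosome Y 0 of 183, where CpG-rich promoters made up 29.5 and 1.64% of the genes, against 35.6 to 60.7% on the autosomes. The mice were male, and the cause of the lower shares on these chromosomes was not tested.

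Head-to-head genes, whose TSS has that of an opposite-strand gene within 1 kb upstream, made up 11.5% of the genes with a site and 5.34% of those without (odds ratio 2.31, interval 2.07 to 2.57, Fisher's exact test, p = 8.14e-48). Both genes of such a pair can be counted for 1 site. Among CpG-rich promoters alone, the shares were 12.6 and 11.9% (odds ratio 1.07, interval 0.949 to 1.204, Fisher's exact test, p = 0.273). The fold enrichment reached 10 in 33.1% of the 320 sites nearest to head-to-head genes and 33.4% of the others (odds ratio 0.985, interval 0.775 to 1.25). Among the strongest of these sites was that shared by Qrsl1 and Rtn4ip1, both of mitochondria, whose starts are 62 bp apart (fold enrichment 73.0). Its summit lay 155 bp downstream of the Qrsl1 TSS, in an intron. Ndufa1, of respiratory complex I, and Rnf113a1, 82 bp apart, shared a site of 54.4 on chromosome X. Ccdc163 and Mmachc, of cobalamin metabolism, 103 bp apart, shared a site of 51.4. Coa5, of cytochrome oxidase assembly, and Unc50, 36 bp apart, shared one of 50.5.

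Promoter occupancy was then read across 25 gene lists, as counts beside the 23.2% of all genes and without a test. The share was above that of all genes in 16 lists, in 7 of them with an interval that lay wholly above it. CpG content moved with these shares, and within CpG-rich promoters 11 of the 16 were above the 40.6% of all CpG-rich promoters. At a score of at least 200, 13 lists were above the share of all genes under that setting. The proteasome, GABAergic and glutamate receptor lists then fell below it, at 3.23, 7.69 and 9.09%. The count was 14 within 500 bp, and 16 with every transcript start and within 2 kb. The thyroid hormone pathway had a site at 9 of 26 genes (34.6%, interval 19.4 to 53.8), with a median fold enrichment of 6.66. No receptor gene was among them, since the nearest sites to the TSSs used for Thra and Thrb were 5993 and 14340 bp away. Of the partners, Rxrb had a strong site (40.4, 98 bp upstream), while Rxra and Rxrg had none. Of the coactivators, Ncoa3 had 50.0 at 142 bp upstream with a pileup of 153, Ncoa2 had 11.2, Ncoa1 5.77 and Med1 6.47. Of the corepressors, Nrip1 had 6.66 and Ncor1 5.32. Of the transporters, Slc16a10 (7.07) and Slc7a8 (5.44) had sites. The deiodinases Dio2 and Dio3 had none.

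Genes known to respond to thyroid hormone in brain had a site in 12 of 30 cases (40.0%, interval 24.6 to 57.7), with a median fold enrichment of 6.75. This list was written with earlier results of these data known, and the study displays the promoter region of Hcn2 in a figure of receptor binding. The highest values were those of Gls2, a glutaminase (44.6, 15 bp downstream), Hcn2, a pacemaker channel (41.3, 215 bp upstream, pileup 110), Hr (21.6) and Dbp (11.4), a clock output factor. Klf9, a Krüppel-like factor and common T3 target, had a weak site in an exon, with a fold enrichment of 4.63 at 271 bp downstream, a pileup of 25 and a background of 4.62. Trp53inp2, Desi1 and Stat5a had no site within 1 kb of the TSS used, and the nearest sites lay 1192, 2806 and 8704 bp from it. With every annotated transcript start, the share of this list was 50%, while 6014 of all genes had a site, against 5092.

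The circadian clock list had the highest share, 15 of 19 genes (78.9%, interval 56.7 to 91.5). The median fold enrichment at the strongest site of each gene was 18.5, beside 7.81 over all single promoter sites. After Nr1d2 came Per3, a period gene, with 68.4 at 225 bp upstream and a pileup of 183, and Bhlhe41 and Bhlhe40, E-box repressors of the clock, with 41.8 and 26.2. The members without a site were Per1, Per2, Csnk1d and Csnk1e. Of the 15 occupied genes, 0 had a DR4 at the strongest promoter site, against 6.35% of all promoter sites, and 13 were CpG-rich, against 83.2% of all genes with a site. Immediate early genes followed with 13 of 20 (65%, interval 43.3 to 81.9, median 10.97). Egr4 had 21.7, Jun 20.1, Dusp1, a phosphatase of MAP kinases, 17.6 and Arc, a synaptic regulator, 15.6, and those without a site were Junb, Egr2, Egr3, Npas4, Ier2, Nr4a2 and Nr4a3.

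Other factors and chromatin genes were next. Krüppel-like and Sp factors had sites at 11 of 25 genes (44.0%), led by Klf16 (15.8), Klf3 (11.9), Sp4 (11.2) and Klf4 (10.8). Nuclear receptors had 9 of 30 (30%), and besides Nr1d2 the highest were Nr3c2, the mineralocorticoid receptor (13.5), Esrra (12.2) and Nr2c2 (11.6). Histone methylation enzymes had 20 of 36 (55.6%, interval 39.6 to 70.5), among them Kmt5c and Dot1l as above, Kmt2e (59.9, 939 bp upstream) and Kmt2b (16.1), whose strongest site held a DR4. The median of this list, over the strongest site of each gene, was 8.29, near that of all single promoter sites.

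Among housekeeping lists, the respiratory chain stood at 24 of 43 genes (55.8%, interval 41.1 to 69.6), with Ndufa1 (54.4), Ndufa5 (49.7), Cycs, the gene of cytochrome c (23.3), and Cox6c (22.0) on top, and 4 of these 24 genes had a DR4 at the site, against 6.35% of all promoter sites. The spliceosome had 12 of 30 (40.0%), led by U2af2 (15.2), Srsf2 (13.9), Snrpd3 (12.3) and Snrnp70 (7.53). The cytosolic ribosomal proteins had 24 of 73 (32.9%), among them Rpl24 (33.4), Rpl30 (24.5) and Rpl3 (14.1), and 0 of the 24 had a DR4. The proteasome had 10 of 31 (32.3%), led by Psma7 (9.89), Psmc1 (9.42), Psmc4 (8.93) and Psmd12 (7.97). Ribosomal and proteasome promoters, of which 84.9 and 96.8% were CpG-rich, were occupied in 35.5% (interval 24.7 to 47.9) and 33.3% (19.2 to 51.2) of the CpG-rich cases. Respiratory chain and spliceosome promoters, of which 83.7 and 93.3% were CpG-rich, were occupied in 55.6% (39.6 to 70.5) and 42.9% (26.5 to 60.9) of these cases. The intervals of all these lists include the 40.6% of all CpG-rich promoters. The Hox clusters, silent in adult forebrain, had 1 site at 39 genes, Hoxa7 (6.27), although 69.2% of their promoters were CpG-rich.

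Cell type lists were read in the same way. Striatal projection neuron genes had a site in 9 of 29 cases (31.0%, interval 17.3 to 49.2). The share was 55.2% when every annotated transcript start was taken, and 17.2% both within 500 bp and at a score of at least 200. Among all protein-coding genes, those with a site numbered 6014, 4201 and 2023 in that order, against 5092. The list was led by Syndig1l (20.8, with a DR4), Ppp1r1b, the gene of DARPP-32 (14.3, 12 bp downstream), Bcl11b (14.1) and Drd1, a dopamine receptor (11.2). Drd2, Adora2a and Pde10a had none within 1 kb of the TSS used. The genes that define GABAergic neurons had 5 of 13 (38.5%), among them Gad2 (20.7) and Gad1 (6.08), which make GABA, Slc32a1 (9.30), which loads it into vesicles, and Dlx6 (7.07). General neuronal genes had 7 of 20 (35.0%), led by Thy1 (13.8), Ncam1 (13.5), Tubb3 (9.25) and Eno2 (7.03). Glutamate receptors had 6 of 22 (27.3%), with Grik3 (36.5), Grm5 (20.3), Gria1 (9.09) and Grin2b (6.69) highest. GABA receptors had 5 of 16 (31.3%) through 4 sites, as Gabra4 and Gabrb1 shared a site of 31.5 with a DR4, and Gabbr2 (8.93) and Gabra2 (6.35) followed. The list of striatal interneurons had 0 of 14, an upper bound of 21.5%.

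Low counts were also found in the lists of other cells: 0 of 20 for astrocytes, 1 of 20 each for oligodendrocytes (Mbp, 7.07), microglia (Cd68, 5.83), endothelium (Ocln, 5.95) and cardiac muscle (Ryr2, 6.90), 0 of 20 for hepatocytes and 1 of 12 for cortical glutamatergic neurons (Camk2a, 9.30). CpG content moved with these counts. The 80 genes of glia and endothelium, of which 3 had a site, included 24 CpG-rich promoters with 2 sites (8.33%, interval 2.32 to 25.8). The 76 neuronal genes, of which 21 had a site, included 44 CpG-rich promoters with 13 sites (29.5%, interval 18.2 to 44.2) and 32 others with 8 sites (25.0%, interval 13.3 to 42.1), against 40.6 and 7.42% for all genes of these classes. These counts describe occupancy and not expression, which was not measured in this series.

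**Figure D5:**
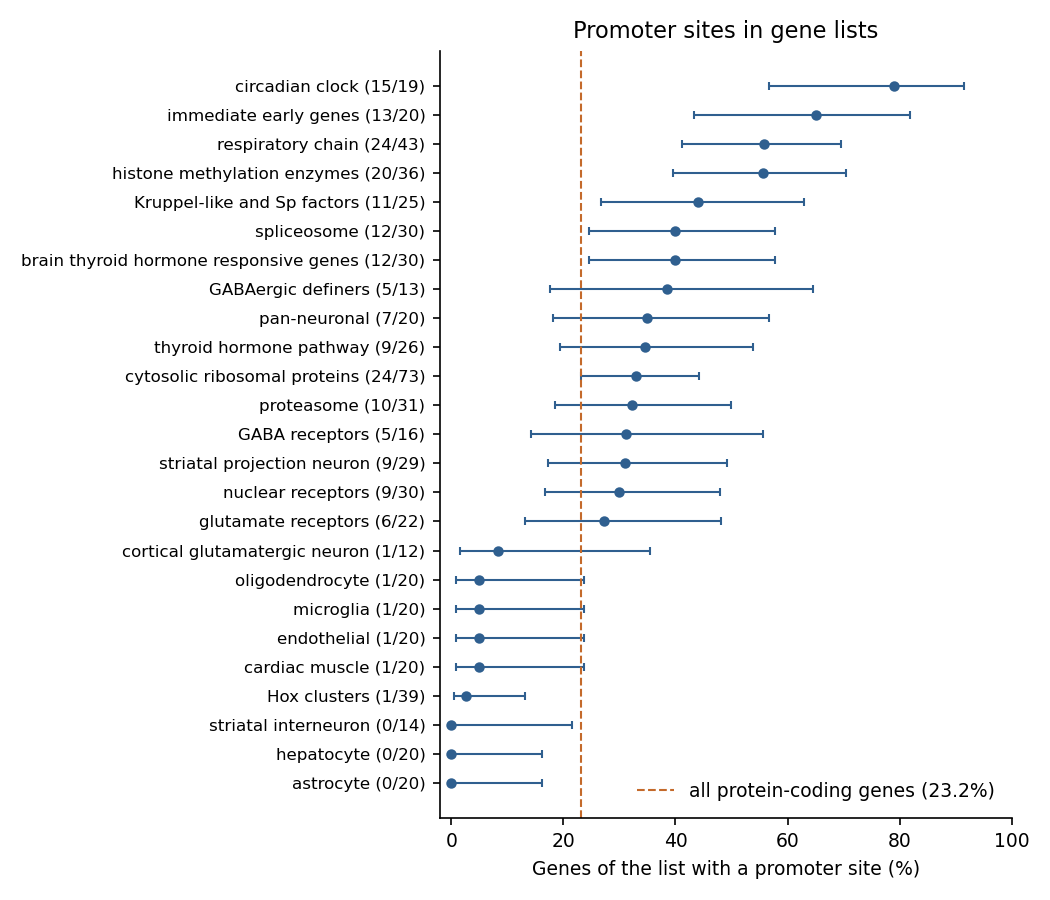
Share of the genes of each list with a promoter site (%, x axis; bars are 95% Wilson intervals) for 25 lists (y axis, with the number of genes with a site and in the list). The dashed line marks 23.2%, the share of all protein-coding genes, and the clock list stood highest at 78.9%.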

How the data were processed

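TRα1 ChIP-seq was measured in striatum from mice expressing a GS-tagged TRα1 in GABAergic neurons, with 2 ChIP libraries and 1 input library. Per the labels, the authors aligned the reads to mm10 (GRCm38) with Bowtie2 2.3.2.2 and called peaks with MACS2 2.1.1.20160309.0, and they removed peaks with a score under 60. The deposited list gives per peak the pileup, which is the fragment coverage (signal) at the summit, the fold enrichment (ratio of pileup to local background, 1 added to each), the −log10 q-value, and a score that the authors' caller sets at 10 times that value. Pooling of the ChIP libraries and removal of duplicates are not given in the sources used here. Pileup and the number of sites depend on depth and on both of these steps.

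From the list, each summit was assigned to the nearest 5′ end of a protein-coding gene in GENCODE vM21. Local background was computed back from pileup and fold enrichment. Sequences were read from GRCm38. DR4 and the other patterns were searched 100 bp to either side of the summit on both strands, each hexamer pair with at most 2 mismatches. Shares were given with 95% Wilson intervals, and tested by Fisher's exact, exact binomial or exact McNemar tests, all two-sided, with Benjamini-Hochberg adjustment where several patterns or classes were tested. Odds ratios have Woolf intervals. All of these cover counting over 1 list. The pattern search and the tests were tested on simulated data. Python 3.11.15 was used with numpy 2.4.6, pandas 2.3.3, scipy 1.17.1, matplotlib 3.10.9 and pysam 0.24.0.

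Named genes were those nearest to the 12 strongest sites, the 10 sites with fewest DR4 mismatches, 5 genes with most sites, up to 4 genes of each list by fold enrichment, 8 genes named by the study, the 3 sites nearest to 1 kb on either side of that limit, the 5 widest and the 3 weakest sites, and the 5 strongest head-to-head pairs. The further thyroid hormone pathway genes were named after their values were seen. A few genes that the rule names are not reported here. The members, gene lists and tests were chosen with earlier results of these data known. In the lists, 637 distinct genes were used, 12 of them in more than 1 list, and 1 symbol was not matched. Alternatives were another score limit, TSS definition, distance, peak position, mismatch limit, search width, paired window, CpG definition and pair distance. The comparisons within like GC content and within CpG-rich promoters were added after seeing the data.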

Additional observations from a re-analysis of the deposited data

How the results depend on the processing

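Of 64 alternative values for the 10 main results, 53 stayed on the same side of the threshold or within the allowed range, as did 147 of 208 values for single motifs and lists. The share of sites within 1 kb was 24.2% at a score of at least 200, 27.2% with every transcript start, 24.1% with all annotated genes, 16.2% within 500 bp and 23.7% within 2 kb. The downstream share was 50.9% with every transcript start. At a score of at least 200 the odds ratio for a fold enrichment of at least 10 was 0.492, and 2023 genes had a site. The count of motifs past the threshold was 3 in the pairs of like GC, against 13. The odds ratio for DR4 at promoter and other sites was 0.732 at 65 to 75% GC (p = 0.182), and that for head-to-head genes was 1.07 within CpG-rich promoters (p = 0.273, Fisher's exact tests). DR4 at the summit against its window passed in each alternative run, with ratios from 1.81 (up to 3 mismatches) to 7.55 (pairs of like GC).

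The ratio of summit to window changed sign for single motifs, none of which passed the threshold under both settings. At a score of at least 200 it was 0.833 for IR0, 1.08 for AP-1 and 0.829 for RFX. With the window 500 bp to the left it was 0.98 for RFX. With the window 5 kb to the right it was 0.783 for DR3, 0.898 for DR5, 0.8 for DR8, 0.791 for IR0, 0.981 for the TR octamer, 0.875 for NR4A and 0.790 for RFX. In the pairs of like GC it was 1.125 for DR2, 0.941 for DR5, 1.06 for DR6, 1.25 for DR7, 1.22 for AP-1, 0.923 for ZNF143, 1.07 for TATA and 2 for MEF2. The cause of these changes was not tested.

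No paired analysis was possible because the list holds no values for single libraries, and for the same reason no library was left out in turn. The spread between animals is therefore unknown for all values.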
